A study of Mus musculus with 4 samples.

Results

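The regions described here are stretches of chromatin that were called open in both lung tumours of KrasLA1 mice and were not called in either tumour of KrasLA1;Dicer1S2D mice. They were chosen by the peak calls themselves: an autosomal merged region was taken if it overlapped by 1 bp or more a peak of both KrasLA1 libraries and no peak of either KrasLA1;Dicer1S2D library. By this rule 861 of 60713 autosomal regions were taken, a background of 1.42%. The reverse pattern, a call in both KrasLA1;Dicer1S2D tumours only, was met by 362 regions, or 0.596%. Since the calls chose the regions, their presence and absence is a description and carries no test.

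The material was snap-frozen lung tumour, 40 to 50 mg per mouse, from 4 C57B6J mice aged 55 weeks, assayed by ATAC-seq: a transposase cuts and tags accessible DNA, which is then sequenced. All mice were heterozygous for KrasLA1, a latent oncogenic allele that becomes active by spontaneous recombination in single cells; 2 of them had no further allele named (KrasLA1/+) and 2 were also heterozygous for Dicer1S2D (KrasLA1/+;Dicer1S2D/+), a form of the microRNA-processing enzyme Dicer1 that imitates phosphorylation. The mouse of replicate 1 was female and that of replicate 2 male in both groups, so replicate number and sex cannot be told apart. The labels do not say how many tumours went into a sample.

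The table gives where a peak was called in mm10, with no height, score or count, so depth is unknown. KrasLA1 replicates 1 and 2 had 41621 and 44654 peaks, and KrasLA1;Dicer1S2D replicates 1 and 2 had 50282 and 34767. The group means, 43137.5 ± 2144.65 (SD, n = 2) and 42524.5 ± 10970.8 (SD, n = 2), differed by less than the spread between mice (exact two-sided permutation test, p = 1; the smallest p possible with 2 against 2 mice is 0.333). Between mice of the same replicate number the KrasLA1;Dicer1S2D tumour had 8661 more peaks in replicate 1, while the difference was -9887 in replicate 2. KrasLA1;Dicer1S2D replicate 2, with the fewest peaks, was a library in which absence was required, and the part of its peak number in the choice of regions was not tested. Markers of alveolar type 2 cells, the surfactant-producing cells of the lung, had 110 regions near them, of which 68 and 97 were called in the KrasLA1 tumours and 84 and 66 in the KrasLA1;Dicer1S2D tumours. All autosomal regions other than the 861 were called in 65.5%, 71.4%, 79.9% and 55.6% in the same order, and without heights or counts these marker calls do not by themselves check the tissue.

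Open regions of this kind fall at promoters, where transcription starts, and at distal elements such as enhancers, which often lie inside introns or between genes. Promoters of widely used genes tend to be open in most cells and rich in CG dinucleotides, while distal elements vary more between cell types. In bulk tissue a region called in 1 sample and not in another can reflect fewer cells of a type or less open chromatin per cell, and these cannot be told apart.

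Among the microRNA genes, 38 of 686 (5.54%) with any autosomal region within 10 kb had one of the 861 regions that near. The share was 4.87% (773 of 15882) for protein-coding genes. These 38 microRNA genes lay at 20 regions. MicroRNAs are short RNAs cut from hairpins by Dicer1 that pair with messenger RNAs through their seed, bases 2 to 8. All 38 genes were matched in the RefSeq microRNA table (GRCm38.p6), giving 66 mature sequences with 64 different seeds. Shown 5′ to 3′ with the seed in capitals are 10 mature sequences from the hairpins inside a region and from 3 clusters with a member within 2 kb of one, because the seeds show which of them can share targets. They were chosen after their values were seen; Mir6921 (381 bp from a region), Mir3071 (416 bp), Mir8095 (446 bp) and Mir6991 (623 bp) also lay near and are not shown.
mmu-miR-126a-3p: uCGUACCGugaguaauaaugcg
mmu-miR-126b-3p: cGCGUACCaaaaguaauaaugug
mmu-miR-126b-5p: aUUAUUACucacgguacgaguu
mmu-miR-141-3p: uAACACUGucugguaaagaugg
mmu-miR-200c-3p: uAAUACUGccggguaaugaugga
mmu-miR-23a-3p: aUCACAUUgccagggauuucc
mmu-miR-27a-3p: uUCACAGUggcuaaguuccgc
mmu-miR-24-3p: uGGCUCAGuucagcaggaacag
mmu-miR-136-5p: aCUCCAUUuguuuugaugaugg
mmu-miR-432: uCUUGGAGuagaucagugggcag
No 2 of these 10 sequences had the same seed.

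The hairpins of Mir126a and Mir126b lay inside a region of 417 bp (chr2:26591020-26591436) at an end of Egfl7, a gene of endothelial cells. Both lie within the span of Egfl7 but on opposite strands, Mir126a on the plus and Mir126b on the minus strand. The peak covered 253 bp in KrasLA1 replicate 1 and 338 bp in replicate 2. Of the 3 regions of Egfl7, KrasLA1 replicates 1 and 2 had all 3, and of the KrasLA1;Dicer1S2D tumours replicate 1 had 2 and replicate 2 had 0. The nearest region called in all 4 libraries was 12325 bp away.

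Mir141 and Mir200c, microRNAs known for keeping epithelial cells epithelial, lay 555 and 963 bp from a region of 301 bp (chr6:124717059-124717359) between Phb2 and Ptpn6. The peaks covered 222 and 296 bp in the KrasLA1 tumours, and a region of all 4 libraries lay 1134 bp away. Mir24-2, Mir3074-2, Mir27a and Mir23a lay 1428 to 1757 bp from a region of 315 bp (chr8:84210349-84210663) at an end of Zswim4, with peaks of 191 and 315 bp. The largest group, 13 microRNA genes of the imprinted Dlk1 domain (Mir3071, Mir136 and Mir432 nearest), lay 416 to 9940 bp from 1 region of 304 bp in Rtl1, a retrotransposon-derived gene expressed in placenta (chr12:109595813-109596116). That was the sole region of Rtl1, and the nearest of all 4 libraries was 63251 bp away. These 13 genes share 1 region and are not separate observations. With equal numbers of widest peaks in each library, 4 of the 20 regions near microRNA genes were kept, that of Mir126a and Mir126b among them, while those near Mir141, Mir23a and Rtl1 were not. With the widest 75% of peaks 3 of the 20 were kept, and none of these 4 regions was among them. Members of the microRNA machinery, 16 genes with 68 regions, had 0 of the 861 regions, against 1.42% of all autosomal regions. Whether 0 of 68 differs from that share was not tested.

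The widest of the regions that overlapped a listed promoter window are shown next. Windows ran from 250 bases before to 50 after each start site in the RefSeq promoter table, read 5′ to 3′ on the strand of the gene. Of 820 regions on the autosomes that the table covers, 51, or 6.22%, overlapped a window, belonging to 53 genes. The share was 15.6% of all regions on these autosomes and 31.4% of those called in all 4 libraries. The table lists no window for some genes. It had one for 579 of the 773 protein-coding genes with such a region in the gene or within 10 kb. For all genes with any region that near, it had one for 12636 of 15882. Promoters of unlisted genes could not be counted, so these shares can be too low. The 4 widest are given because in each the region covered the whole window, from a CG-rich to a CG-poor one. Capitals mark matches on either strand to the motifs GGGCGG (SP and KLF factors) and CCAAT (NFY); the AP-1 motif TGANTCA, the ETS motif CCGGAAG, the TEAD motif CATTCC and the forkhead motif TGTTTAC were also searched. So were the E-box motif CACGTG, the core promoter box TATAAA and, for factors of the GATA family, GATAAG. Matches of different motifs could overlap. A match is a description of letters and not a site of binding.
Jag2 (chr12:112929446-112929745, minus strand)
Jag2: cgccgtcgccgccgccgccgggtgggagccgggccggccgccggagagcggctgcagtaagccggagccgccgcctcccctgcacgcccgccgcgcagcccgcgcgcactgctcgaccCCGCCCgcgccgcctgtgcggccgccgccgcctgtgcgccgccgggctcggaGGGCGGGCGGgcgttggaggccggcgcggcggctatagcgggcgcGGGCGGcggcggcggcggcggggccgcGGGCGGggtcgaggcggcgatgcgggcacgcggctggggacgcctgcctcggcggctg
E2f2 (chr4:136172024-136172323, plus strand)
E2f2: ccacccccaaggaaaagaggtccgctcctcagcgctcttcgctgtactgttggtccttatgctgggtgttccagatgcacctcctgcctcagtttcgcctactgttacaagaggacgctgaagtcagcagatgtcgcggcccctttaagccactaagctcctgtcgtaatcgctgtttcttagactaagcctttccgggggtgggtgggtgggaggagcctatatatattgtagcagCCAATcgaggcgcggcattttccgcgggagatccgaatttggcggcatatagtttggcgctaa
Chrm3 (chr13:10360754-10361053, minus strand)
Chrm3: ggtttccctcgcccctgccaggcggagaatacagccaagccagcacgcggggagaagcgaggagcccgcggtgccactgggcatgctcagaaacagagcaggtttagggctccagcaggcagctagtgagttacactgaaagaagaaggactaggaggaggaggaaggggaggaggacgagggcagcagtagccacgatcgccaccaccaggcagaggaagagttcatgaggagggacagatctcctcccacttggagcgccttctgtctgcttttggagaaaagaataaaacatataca
Col27a1 (chr4:63215162-63215461, plus strand)
Col27a1: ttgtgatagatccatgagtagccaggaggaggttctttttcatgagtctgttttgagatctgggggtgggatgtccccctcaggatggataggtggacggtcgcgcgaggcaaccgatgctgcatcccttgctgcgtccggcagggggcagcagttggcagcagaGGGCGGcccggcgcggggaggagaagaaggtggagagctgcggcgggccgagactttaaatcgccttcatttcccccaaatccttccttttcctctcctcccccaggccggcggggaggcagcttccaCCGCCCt
The window of Jag2, a ligand that activates Notch receptors on neighbouring cells, was 86% G and C and held 5 matches to GGGCGG. That of Col27a1, a fibrillar collagen, held 2, E2f2, a cell-cycle transcription factor, had 1 match to CCAAT, and the window of Chrm3, a muscarinic acetylcholine receptor, had 0 matches to the 9 motifs.

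Of the 56 windows at these regions, 33 (58.9%) had a CG dinucleotide ratio of 0.6 or more, observed over expected. The share was 78.6% of 9919 windows at regions of all 4 libraries, 16.6% of 8943 windows at no region, 48.9% of all windows and 6.67% of 15 windows at regions of both KrasLA1;Dicer1S2D tumours only. GGGCGG was found in 29 (51.8%) of the windows, against 69.4% at regions of all 4 libraries and 47% of all windows. CCGGAAG was found in 2 (3.57%), against 20.4% and 11.9% in the same order, and TGANTCA in 1 (1.79%), against 4.57% and 7.06%. GATAAG was found in 0, against 4.39% and 6.91%. These shares describe the windows and were not tested.

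Of the 53 genes with a promoter window at one of the regions, 39 had 1 window in the table and 6 had another window called in all 4 libraries (Atp2c1, Dnmbp, E2f2, Lcorl, Mrtfa and Zfp740). At Jag2 the peak covered 481 bp in KrasLA1 replicate 1 and 1663 bp in replicate 2, so the width rested on replicate 2. At E2f2 it covered 415 and 1178 bp, and at Col27a1 338 and 965 bp, with a peak of KrasLA1;Dicer1S2D replicate 1 lying 274 bp from the region. At Chrm3 the order was the other way, 1043 and 672 bp. Pbx2, a homeobox partner of Hox proteins, had a region of 780 bp at its window, but its 2 peaks, of 460 and 340 bp, shared 20 bp. Other promoters at these regions were those of Rasl10a (776 bp), Aebp1 (753 bp), Rcc2 (746 bp), Slc5a1 (a sodium-glucose transporter), Gata5, Spdef, Hlx, Adra2a and Fscn1. Fscn1, which encodes the actin-bundling protein fascin, had no other region in or within 10 kb of it.

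By place, 165 of the 861 regions (19.2%, 95% Wilson interval 16.7 to 21.9) lay within 2 kb of an end of a protein-coding gene, at either of its 2 sides. Another 399 (46.3%) lay elsewhere in a gene, 85 (9.87%) outside within 10 kb, 165 (19.2%) at 10 to 100 kb and 47 (5.46%) farther. Of all autosomal regions 41.6%, 8%, 18.5% and 6.84% lay in these places in the same order. The share at gene ends was below the 25.1% (24.8 to 25.4) of all autosomal regions and the 40.8% of regions called in all 4 libraries. It was above that of regions called in another pair of libraries, 11.9% (11.3 to 12.6) of 8867. It was 13.8% of the 362 regions of both KrasLA1;Dicer1S2D tumours only, with an interval of 10.6 to 17.7 that overlapped that of the 861. The width of the regions was near that of other regions of 2 libraries, with medians of 382 and 374 bp, and below the 789.5 bp of regions of all 4. Wilson intervals cover counting error and not the spread between mice. The promoter table has no chromosome 18 and lacks some genes on other chromosomes, Trim8 among them, so shares near start sites can be too low. Listed start sites stood within 1 kb of 11.2% of the 820 regions outside chromosome 18. The share was 17.5% of all autosomal regions that the table covers, 5.12% of those of another pair and 32.9% of those of all 4.

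**Figure D1:**
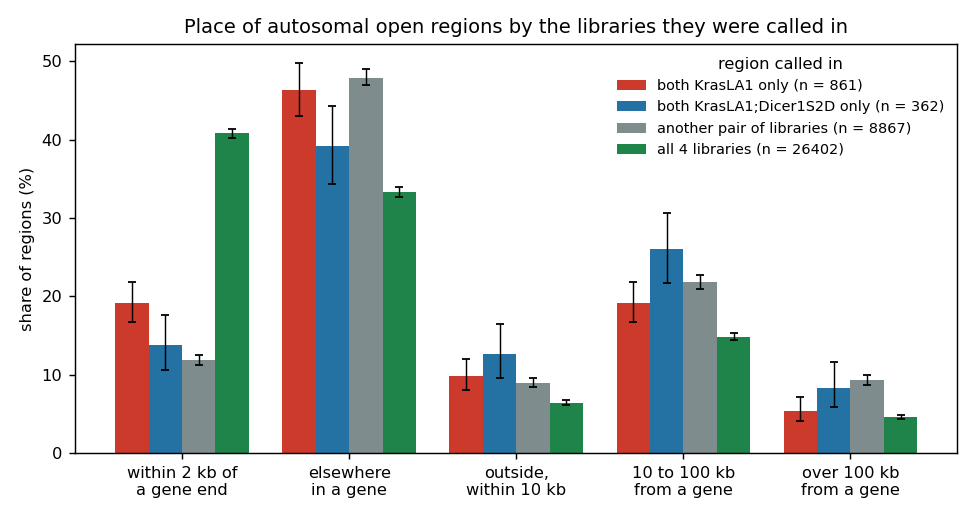
Share of regions (%) in 5 classes of place, by the libraries in which a region was called, with bars from 0 and 95% Wilson intervals. Regions of both KrasLA1 tumours only sit at gene ends in 19.2%, between the 11.9% of another pair of libraries and the 40.8% of all 4 libraries. The share of all autosomal regions, not drawn, is 25.1%.

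A region called in all 4 libraries lay within 10 kb of 392 of the 861 (45.5%, 95% Wilson interval 42.2 to 48.9), against 36.2% of regions of another pair, 37% of those of both KrasLA1;Dicer1S2D tumours only and 40% of all regions. The share was 42.2% (41.1 to 43.3) of regions of 3 libraries and 42.3% (41.7 to 42.9) of those of all 4, intervals that overlap that of the 861. Within 1 kb it was 7.43%, against 4.27% and 5.52% of the first 2 of these, and 5.57% had none within 100 kb. With only the widest 75% of peaks, or equal numbers of widest peaks, the share within 10 kb was 36.7%. Regions of all 4 libraries were called anew from the reduced peaks there. The other sets of regions were not counted in these settings, so 36.7% has no like share to stand beside. The cause of the change was not tested.

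**Figure D2:**
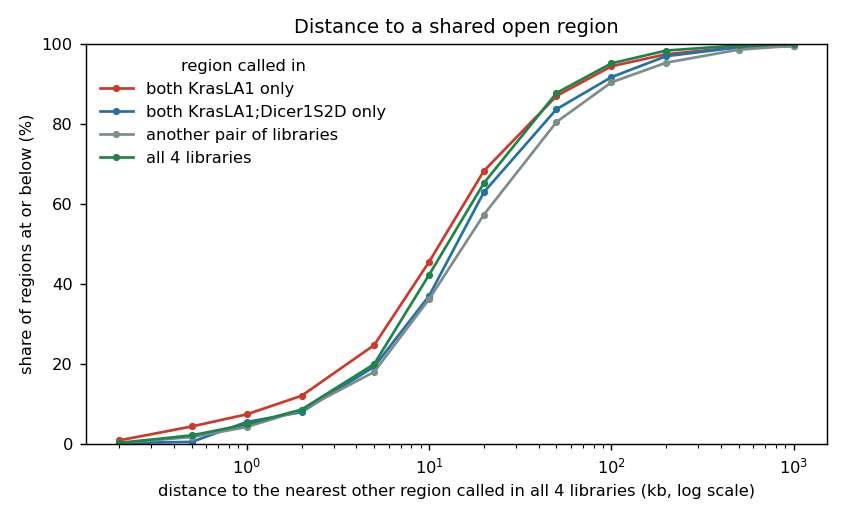
Cumulative share of regions (%) by distance (kb, log scale) to the nearest other region called in all 4 libraries, for 4 sets of regions. The curve of both KrasLA1 tumours only lies at 45.5% at 10 kb, above the 36.2% of another pair and the 37% of both KrasLA1;Dicer1S2D tumours.

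At 38 regions the shared one stood within 500 bp. The region closest to a shared one lay 80 bp from it at Nkpd1, with others at Traf4, Smad2, Scd1, Zfp740, Nufip2, Zfp516 and Met, 155 to 232 bp from theirs; these were chosen after their values were seen. The 1221 bp region of Trim8, a ubiquitin ligase gene, covered 1190 and 1089 bp in the KrasLA1 tumours and lay 451 bp from a shared region. The other extreme was Elavl2, an RNA-binding protein of neurons, whose 2 regions, of 243 and 580 bp, were 1851276 and 1683397 bp from a shared region and were the sole 2 of that gene. Other far regions were 1003144 bp from a shared one near Prr16, 639320 bp near Adgrl4 and 548017 bp at Abca13.

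The immediate neighbours of the 861 regions, 1722 in all, were of all 4 libraries in 44.5%, against 43.5% of all regions. They were of the same kind in 2.56% (44), against 1.42%, and of the reverse kind in 0.407% (7), against 0.596%. Another of the 861 lay within 50 kb of 103 (12%). The closest pairs were at Npffr1 (197 bp apart), Kidins220 (341 bp), Kcnj15 (718 bp), Nfix and Lyl1 (790 bp) and Spry2 (1966 bp). Kidins220 had 3 regions, of which the KrasLA1 tumours had 3 each and the KrasLA1;Dicer1S2D tumours 1 each. Around the 861, with these left out, the 5042 regions within 50 kb were called in 67.9% and 77.4% in the KrasLA1 tumours and 77.6% and 58.6% in the KrasLA1;Dicer1S2D tumours. Beyond 200 kb the shares were 64.8%, 69.9%, 80.2% and 54.8% in the same order. The difference between near and far was thus upward in 3 libraries and downward in KrasLA1;Dicer1S2D replicate 1, and the change was largest in KrasLA1 replicate 2.

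**Figure D3:**
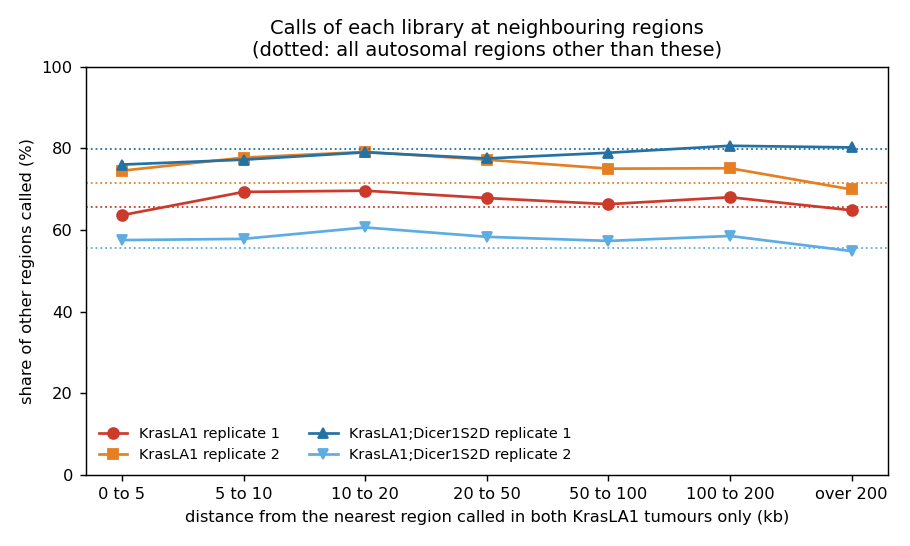
Share (%) of other autosomal regions called in each library by distance (kb) from the nearest region of both KrasLA1 tumours only, with dotted lines for all such regions together. KrasLA1 replicate 2 goes from 77.4% within 50 kb to 69.9% beyond 200 kb, and KrasLA1;Dicer1S2D replicate 1 from 77.6% to 80.2%.

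Chromosomes held different shares of these regions. The highest was chromosome 16, with 56 of 2289 (2.45%) and 8 of the reverse kind, followed by 19 (2.17%), 3 (2.06%), 18 (2.04%) and 12 (2.01%). Chromosome 17 was lowest, with 13 of 2785 (0.467%) and 22 of the reverse kind, followed by 14 (0.611%). On chromosome 17 the calls of KrasLA1 replicate 1 covered 56.3% of regions and those of KrasLA1;Dicer1S2D replicate 1 84.4%, while on chromosome 16 they covered 73% and 73.5%. KrasLA1 replicate 2 and KrasLA1;Dicer1S2D replicate 2 covered 72.6% and 54.7% on chromosome 17 and 73.2% and 56.6% on chromosome 16. The part of the call rates in these shares was not tested.

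**Figure D4:**
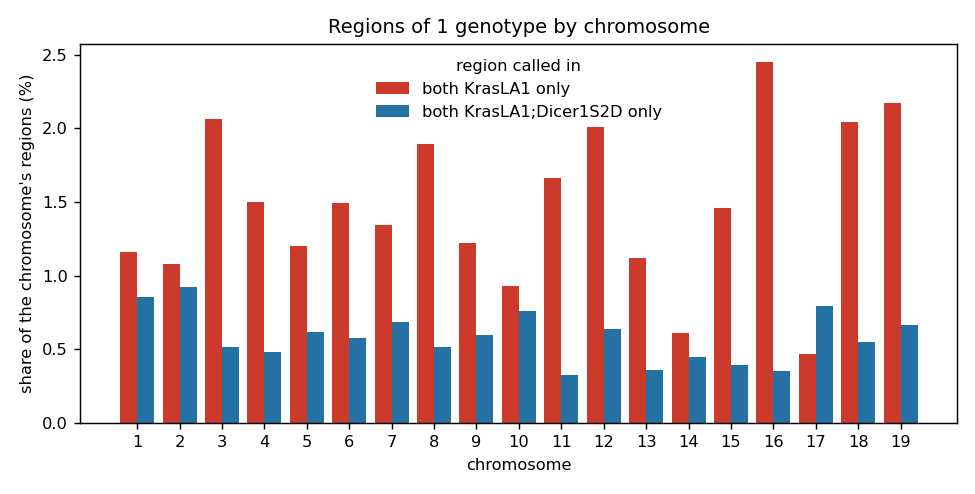
Regions called in 1 genotype only as a share (%) of each autosome's regions, for both KrasLA1 tumours only and for both KrasLA1;Dicer1S2D tumours only. Chromosome 16 is highest for the former at 2.45% and chromosome 17 lowest at 0.467%.

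By genes, 773 of 15882 protein-coding genes with a region in the gene or within 10 kb had one of the 861, a background of 4.87%, against 283 (1.78%) for the reverse kind, and 15 genes had both. Of the 773 genes 726 had 1 such region, 41 had 2 and 6 had 3. They had a median of 6 regions, against 3 for all genes, and a gene with more regions has more chances to be counted. A region of all 4 libraries lay near 690 of them (89.3%), against 87.2% of all genes. A promoter window was listed for 579 of the 773 genes and was called in all 4 libraries in 66.7% of these 579. The share was 67.3% of the 12636 genes with a region and a listed window. Function lists, 41 in number, are therefore read below against regions, of which 1.42% were of this kind, and with no test over a list. Some genes are in more than 1 list, Tek, Flt1, Spdef, Spi1, Onecut2 and Nkx2-1 among them, so the lists are not separate observations. At 75 genes with 2 or more regions the 861 supplied at least 50% of them, and at 26 genes the 1 region was of this kind. Most of the 75 had 2 regions, of which 1 was of this kind. The numbers of all genes with 2 or more regions, or with 1, are not given, so these counts have no background.

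Among ligands and receptors, Notch pathway genes had 4 of 147 regions (2.72%): Jag2, the Notch4 receptor (whose region is that of Pbx2), and the coactivators Maml3 (543 bp) and Maml2 (305 bp). Wnt pathway genes had 6 of 224 (2.68%). These were at the co-receptors Lrp6 (689 bp) and Lrp5 (388 bp), the ligand Wnt3a (292 bp), the inhibitor Axin2 (653 bp, 6632 bp outside the gene), the receptor-removing ligase Znrf3 (489 bp) and the transcription factor Tcf7l1 (392 bp). At Znrf3 9 of 9 regions were called in KrasLA1 replicate 2, and 2, 2 and 4 in KrasLA1 replicate 1 and the 2 KrasLA1;Dicer1S2D tumours. Receptor tyrosine kinases had 5 of 179 (2.79%), at Ror1 (931 bp), Fgfr2, the angiopoietin receptor Tek, Flt1 and Met, but with equal numbers of peaks 1 gene of this list was left in place of 5, and the regions of Fgfr2, Tek, Flt1 and Met were not kept. MAPK feedback genes had 4 of 89 (4.49%), all at the inhibitors Spry2 (594 and 770 bp) and Spry1 (307 and 277 bp); with equal numbers of peaks 1 gene of this list was left in place of 2. TGF-beta and BMP genes had 4 of 275 (1.45%), near the background, with the BMP antagonist Chrd (727 bp) and the signal carrier Smad2 (311 bp) among them.

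G protein-coupled receptors had 10 of 384 regions (2.6%), with 3 at Chrm3, 2 at the adenosine receptor Adora1, and 1 each at Adra2a, Lpar5, Gpr137, Htr1d and P2ry2. Adra2a, an adrenergic receptor, had 2 regions, both called in KrasLA1 replicate 1, while KrasLA1 replicate 2 and KrasLA1;Dicer1S2D replicate 1 had 1 each and the last library 0. Cytokines and their receptors (3 of 421, 0.713%) were below the background of 1.42%, and cyclic nucleotide signalling genes (8 of 492, 1.63%) near it.

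Potassium channel genes had 8 of 250 regions (3.2%), with 3 at Kcnj15 and 1 each at Kcnj4, Kcnn1, Kcnk4, Kcnj11 and Kcnk7; Kcnk4 shares its region of 453 bp with the receptor gene Gpr137. Kcnj11, a subunit of the ATP-sensitive channel, had 2 regions, of which the KrasLA1 tumours had 2 and 1 and the KrasLA1;Dicer1S2D tumours 0 each. Solute carriers had 24 of 1229 (1.95%), among them Slc16a9 (744 bp), Slc5a1 (710 bp) and Slc16a14 (614 bp). Lipid genes had 7 of 337 (2.08%), with the 2 at Hacd2, an enzyme of very long fatty acids, of 1213 and 445 bp. Vesicle genes had 11 of 763 (1.44%), at the background.

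Adhesion was uneven. Focal adhesion and podosome scaffold genes had 11 of 337 regions (3.26%): 3 at Nedd9, 2 at Lpp and 1 each at Sh3pxd2a (1280 bp), the crosslinker Actn1 (788 bp), Evl, Tns1, Tln2 and Tns3. At Sh3pxd2a, a podosome scaffold, the KrasLA1 peaks covered 416 and 1280 bp, and its 11 regions were called 7 and 10 times in the KrasLA1 tumours and 7 and 6 times in the KrasLA1;Dicer1S2D tumours. Integrin genes had 0 of 137, and whether this differs from the share of all autosomal regions was not tested. Cadherins and junction genes had 7 of 356 (1.97%) although 23 of their 93 genes were counted, because 17 gamma-protocadherin genes share 1 region of 700 bp on chromosome 18. The others were at the epithelial cadherin Cdh1 (462 bp), Ocln (391 bp), Cldn10 (744 bp), Cldn3, Cdh16 and the polarity gene Pard3. Extracellular matrix genes had 5 of 522 (0.958%), among them Col27a1 and Mmp28 (550 bp).

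T-box factors had 5 of 26 regions (19.2%), with 3 at Tbx15 and 1 each at Tbx2 (692 bp) and Mga (451 bp), so 3 of the 5 came from 1 gene. Homeobox genes had 9 of 312 (2.88%), of which 1 of 655 bp was shared by Hoxa3, Hoxa5, Hoxa6 and Hoxa7, and others were at Pbx2, Nkx2-9 (490 bp), Onecut2 and Nkx2-1. ETS factors had 4 of 130 (3.08%), at Spdef (548 bp), Etv3, Spi1 and Ehf, and Kruppel-like factors 2 of 64 (3.12%), at Klf9 and Klf7. Zinc finger genes had 23 of 1205 (1.91%). SOX genes had 0 of 64, forkhead genes 1 of 170 (0.588%, at Foxp1), bZIP genes 1 of 150 (0.667%, at Batf) and nuclear receptors 2 of 293 (0.683%, at Rxra and Vdr). With equal numbers of peaks the genes counted went from 4 to 1 for ETS factors, from 2 to 0 for Kruppel-like factors, from 2 to 1 for nuclear receptors and from 1 to 4 for forkhead genes, so an order of these small families is not given.

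Endothelial markers had 3 of 42 regions (7.14%), at Egfl7, Tek (386 bp) and Flt1 (341 bp), and their regions were called 33 and 31 times in the KrasLA1 tumours and 30 and 22 times in the KrasLA1;Dicer1S2D tumours. Fibroblast and smooth muscle markers had 2 of 31 (6.45%), both at Acta2, the actin of smooth muscle (370 and 462 bp), with calls of 18, 16, 21 and 11 in the same order. Alveolar type 1 markers had 3 of 71 (4.23%, at Ager, Aqp5 and Akap5; Ager's region is that of Pbx2), with calls of 49, 58, 56 and 42. Type 2 markers had 4 of 110 (3.64%, at Sdc1, Slc34a2, Il33 and Nkx2-1). Airway markers had 1 of 31, at Trp63, myeloid markers 1 of 36, at Spi1, and gastric epithelium markers 2 of 59, at Spdef and Onecut2. Lymphocyte (18 regions) and mesothelial markers (8) had 0. With equal numbers of peaks the genes counted went from 3 to 1 for endothelial markers (Tek and Flt1 not kept) and from 3 to 1 for alveolar type 1 markers, and from 1 to 0 for airway and for myeloid markers. For gastric epithelium markers they went from 2 to 1, and the regions of Spdef and Onecut2 were both not kept. The number of called marker regions was lowest in KrasLA1;Dicer1S2D replicate 2, which has the fewest peaks, in these 4 lists of endothelial, smooth muscle and alveolar cells, and the part of this in the counts was not tested.

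**Figure D5:**
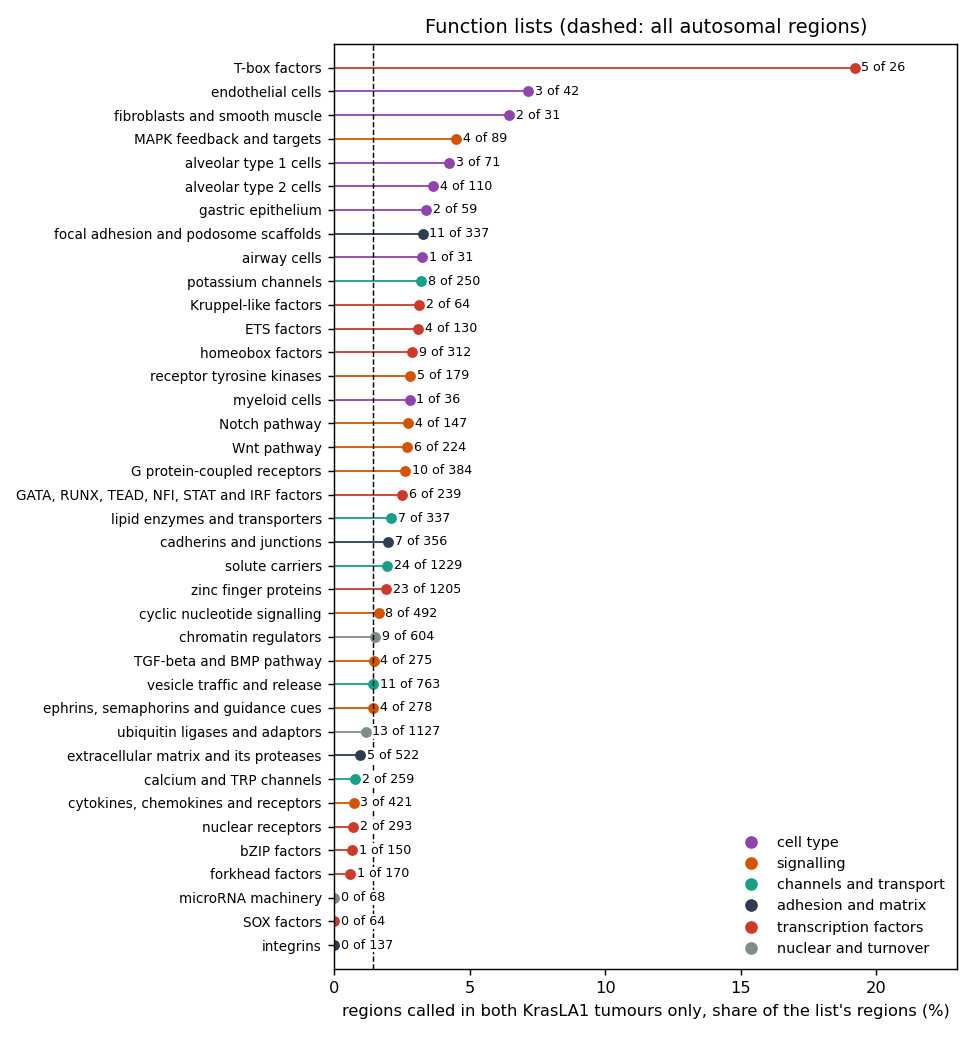
Share (%) of each function list's regions that were called in both KrasLA1 tumours only, with the count beside each point, coloured by role, for 38 of the lists with 20 regions or more; the dashed line is the 1.42% of all autosomal regions. T-box factors stand at 19.2% with 5 of 26 regions, and integrins, SOX factors and microRNA machinery at 0.

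Of the 861 the narrower KrasLA1 peak lay wholly inside the other at 452, and the 2 peaks shared less than 50% of the narrower at 39 (4.53%), with 9 bp shared at the least. The peaks covered 167 to 1190 bp (median 268 bp) in KrasLA1 replicate 1 and 184 to 1663 bp (median 314 bp) in replicate 2, and were wider in replicate 2 at 547 (63.5%). Just inside the rule, 49 regions (5.69%) had a KrasLA1;Dicer1S2D peak within 500 bp, the closest at 80 bp, with a median of 6492 bp over all. Just outside it, 3946 regions were called in both KrasLA1 tumours and 1 KrasLA1;Dicer1S2D tumour, 3234 of them in its replicate 1 and 712 in its replicate 2, with a median width of 460 bp. With equal numbers of widest peaks in each library, 288 of the 861 (33.4%) were kept, 22 of them at promoter windows. This setting keeps wide peaks by its construction, so the median widths of 501.5 bp for those kept and 326 bp for the 573 not kept are built in. Of the 15 widest, 14 were kept there and 11 with the widest 75% of peaks.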

How the data were processed

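Samples were grouped by the labels' genotype. The deposited table holds intervals in mm10, per the file headers: the authors' peaks of each library and their merged regions, with no other score or value. BWA 0.7.12, MACS3 3.0.0 and deepTools 3.5.1 are named in the submitters' processing notes, their settings not given in the sources used here. Tools were Python 3.11.15 with numpy 2.4.6, matplotlib 3.10.9 and scipy 1.17.1. Regions were merged from peaks that overlapped by 1 bp or more, which gave the authors' 61972 merged regions, of which 60713 are autosomal. Genes came from RefSeq (GRCm38.p6, the assembly of mm10) without exons, so exons and introns were not annotated. Exact two-sided permutation was used for peak numbers, and 95% Wilson intervals for shares.

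The regions, lists and rules were chosen with earlier results of these data known, and the patterns of the lipid and microRNA machinery lists were corrected after values were seen. Named genes were the 15 widest regions, up to 4 genes per list by width, the 5 closest pairs, the 5 farthest from a shared region and from a gene, genes where these regions are at least 50% of 2 or more, the 8 widest at promoter windows, and microRNA genes within 10 kb. Code was tested on simulated data, where 200 of 200 regions planted among 60713 were recovered. Simulated peaks were whole merged regions, and no unplanted region was given this pattern. Partial overlaps and unequal peak numbers were therefore not covered by it. Peaks of the widest 75%, equal peak numbers, a 500 bp gap, a 200 bp minimum, X and Y, gene assignment and each library left out were tried. The 50% overlap with the merged region that had been planned holds for every peak by construction, so 50% of the narrower peak shared between peaks was added after seeing the data. 0 columns of other samples were used. Results of 1 list and 1 gene are not reported here.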

Additional observations from a re-analysis of the deposited data

How the results depend on the processing

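No paired analysis was possible because the table holds calls without values, so the regions could not be fitted with a replicate block. For peak numbers the replicate block, added after seeing the data, gave a mean difference of -613 from pairs of 8661 and -9887 (exact two-sided sign-flip permutation test, p = 1; the smallest possible is 0.5). The number of regions was 681 with the widest 75% of peaks, 621 with equal numbers, 812 when a KrasLA1;Dicer1S2D peak within 500 bp counted, 1027 with peaks of 200 bp or more, 879 with X and Y and 832 when peaks had to share 50% of the narrower, and 196, 288, 812, 659, 861 and 822 of the 861 were among them. The share at gene ends was 23.1% with the widest 75%, and that within 10 kb of a shared region 36.7% there and 36.7% with equal numbers. Shared regions were called anew in these settings, and other sets of regions were not counted there. Genes were 187 with an end within 2 kb. Leaving out each library gave 1577 to 6291 regions, 1377 to 4075 genes, gene end shares of 13.5% to 20.5% and shared-neighbour shares of 34.3% to 48.7%; fewer required calls admit more regions. The number of regions was lowest, 1577, without KrasLA1;Dicer1S2D replicate 2 and highest, 6291, without KrasLA1 replicate 1. The difference in peak number went from -613 to 903.5 when KrasLA1 replicate 2 was left out, and ranged from -8370.5 to 7144.5, the latter without KrasLA1;Dicer1S2D replicate 2. Of the 41 lists the gene count stayed within 1.5 times in 41 with the 500 bp gap, 23 with equal numbers and 33 by nearest gene. Depth is unknown, so a region not called cannot be told apart from one below the threshold.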

Other observations

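Several of the 15 widest regions lay outside 10 kb of any protein-coding gene and so counted for no list. The 5 farthest from a gene did so too, by the way they were chosen. Regions of 1194 bp (18446 bp from Gm7244), 1067 bp (21324 bp from Eif4e3) and 996 bp (13993 bp from Tbx21) lay outside genes and outside 10 kb of one, as did another 36738 bp from Hfm1. Others of the 15 widest lay in Nhsl1 (1167 bp), Hk2 (1077 bp) and Stpg1 (1014 bp). The regions farthest from a gene were 599145 bp from Auts2, 501855 bp from Gdf6, 490202 bp from Rnf144a, 452973 bp from N6amt1 and 433342 bp from Id2; the nearest region of all 4 libraries lay 29678 to 121587 bp from them. Of the 861 regions 212 had no protein-coding gene within 10 kb, and 50 of these overlapped a long non-coding RNA gene. By distance, 19.2% of the 861 lay at 10 to 100 kb and 5.46% farther, against 18.5% and 6.84% of all autosomal regions.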
